A study of Mus musculus with 8 samples.

Results

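Neurotrophins are secreted growth factors that keep sensory and autonomic neurons alive and shape how they branch and signal. Each is made as a longer precursor, and the mature form signals through a receptor tyrosine kinase of the Trk family, while the precursor form can act through the p75 receptor together with sortilin. In the bladder these factors come from smooth muscle and urothelium as well as from nerve, and they are known for acting on the sensory and autonomic nerves that run in its wall. The family is described here by 7 genes, chosen by symbol, out of 38926 symbols counted. These are the ligand genes Bdnf, Ntf3 and Ntf5, the Trk receptor genes Ntrk2 and Ntrk3, the p75 receptor gene Ngfr and the sortilin gene Sort1. All 7 passed the filter on low counts, among 16370 genes tested.

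PolyA RNA was sequenced from the bladder of mice with a partial obstruction of the bladder outlet that spares the nerves, called NeMO (4 libraries), and of sham-operated mice (Sham, 4 libraries). The sources used here do not give strain, sex, age or time after the operation. Nor do they say if libraries stem from separate animals, and p-values then measure only a spread between samples that may be technical. By the mark in the submitted file names, NeMO replicates 1 and 3 and Sham replicates 1 to 3 form batch 1, and NeMO replicates 2 and 4 and Sham replicate 4 form batch 2, where Sham thus has 1 library. A fit with the batch term but without Sham replicate 4 therefore draws on batch 1 alone for the difference between groups. NeMO libraries totalled 29451800 to 36375313 counts, and Sham libraries 27212499 to 33459048 counts. Each of 10 urothelial and 9 smooth muscle markers was detected in all 8 libraries, the tissues that make up most of a bladder.

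Bdnf was the member that stood apart between the groups, with NeMO libraries above Sham libraries throughout, although it missed the adjusted threshold of edgeR's quasi-likelihood test. Bdnf encodes brain-derived neurotrophic factor, the ligand of the receptor made from Ntrk2. In the mouse it lies on chromosome 2 (109674700 to 109727007, plus strand, GRCm38), and its transcripts start from several alternative first exons that are all spliced to 1 shared coding exon. Counts per gene symbol do not tell which start was used. RefSeq windows (build GRCm38.p6) were found for 4 of the 7 members, Bdnf, Ntf3, Ntrk2 and Ngfr, and gave 11 starts, of which 7 belong to Bdnf. The 250 bases before each start were searched on both strands for the cAMP response element TGACGTCA and its shorter core TGACG. They were also searched for an AP-1-like pattern, TGANTCA, where N is any base, and the TEAD motif GGAATG. Every full cAMP response element also holds the core. Matches were found at 3 of the Bdnf starts, shown here because Bdnf is the member with the largest difference. Capitals mark the matches, on either strand.
Bdnf start at chr2:109676782-109677031: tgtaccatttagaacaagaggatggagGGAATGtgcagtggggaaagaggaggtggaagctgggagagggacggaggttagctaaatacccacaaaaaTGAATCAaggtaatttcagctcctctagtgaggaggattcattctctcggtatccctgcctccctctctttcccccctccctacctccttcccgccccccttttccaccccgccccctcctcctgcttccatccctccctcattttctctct
Bdnf start at chr2:109692186-109692435: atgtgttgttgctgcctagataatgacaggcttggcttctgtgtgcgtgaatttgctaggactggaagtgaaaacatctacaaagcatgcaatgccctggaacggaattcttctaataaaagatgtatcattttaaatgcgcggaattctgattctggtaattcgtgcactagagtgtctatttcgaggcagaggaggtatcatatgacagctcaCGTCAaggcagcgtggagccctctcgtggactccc
Bdnf start at chr2:109722671-109722920: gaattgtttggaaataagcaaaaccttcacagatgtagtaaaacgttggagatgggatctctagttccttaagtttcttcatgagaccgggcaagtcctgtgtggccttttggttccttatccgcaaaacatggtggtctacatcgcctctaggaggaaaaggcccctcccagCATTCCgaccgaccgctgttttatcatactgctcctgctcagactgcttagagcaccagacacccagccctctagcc

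The first of these windows holds a match to the TGANTCA pattern at position −152 relative to the start, with A as its open base. It also holds a TEAD match at position −223. The second holds a TGACG core at position −35, on the minus strand and so printed as CGTCA, within a calcium-responsive promoter of Bdnf that has been studied in neurons. The third holds a TEAD match at position −77. Among all 32851 promoter windows of this length, 17.8% held the TGACG core, 6.75% the TGANTCA pattern and 12.6% the TEAD motif. The full cAMP response element was in 1.55% of them and in no Bdnf window. None of the 4 motifs was found in the windows of Ntf3, Ntrk2 and Ngfr. A match describes letters only and shows neither binding nor a response.

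Bdnf had 385, 278, 290 and 590 reads in NeMO replicates 1 to 4, against 64, 147, 87 and 102 reads in Sham replicates 1 to 4. Scaled to library size by TMM (CPM), these were 11.03, 9.21, 8.45 and 16.3 in NeMO, against 1.89, 5.09, 2.60 and 3.87 in Sham. Every NeMO library lay above every Sham library. NeMO replicate 4 was the highest of the 8 libraries, and Sham replicate 2 was the highest Sham library. The mean was 11.3 ± 3.55 CPM in NeMO and 3.36 ± 1.41 CPM in Sham (SD, n = 4 each). The fitted difference was 3.14-fold (log2 fold change of NeMO minus Sham 1.65, SE 0.33, 95% interval 0.90 to 2.40, edgeR adjusted p = 0.0850). The adjustment ran over all 16370 genes, and its threshold was 0.05.

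Over all genes, 12 (0.0733%) passed that threshold, 7 of them higher (0.0428%) and 5 lower (0.0305%) in NeMO, and 0 of the 7 members did (1 of 7 at an unadjusted p under 0.05 in edgeR, and 1 of 7, Bdnf, by DESeq2). At an unadjusted p under 0.05 stood 18.5% of all genes, 9.38% higher and 9.14% lower, so 1 of 7 members is near the background. Bdnf ranked 149 of 16370 by its p in edgeR. Groups did not overlap with NeMO higher in 4.39% of all genes, with NeMO lower in 3.81%, and either way in 8.19%. Among the members, Bdnf alone showed no overlap. DESeq2's Wald test on the same libraries, which called 953 genes, gave Bdnf a log2 fold change of 1.66 with an adjusted p of 4.6e-05. The log2 fold change was 1.61 in batch 1 alone and 1.73 in batch 2 alone, and leaving out 1 library at a time gave 1.49 to 1.96 (edgeR adjusted p = 0.0654 to 0.396). An antisense gene model of GENCODE overlaps 14.4% of the exonic bases of Bdnf. Since the strand setting of the counting is not given, reads from that overlap cannot be assigned to a strand.

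**Figure D1:**
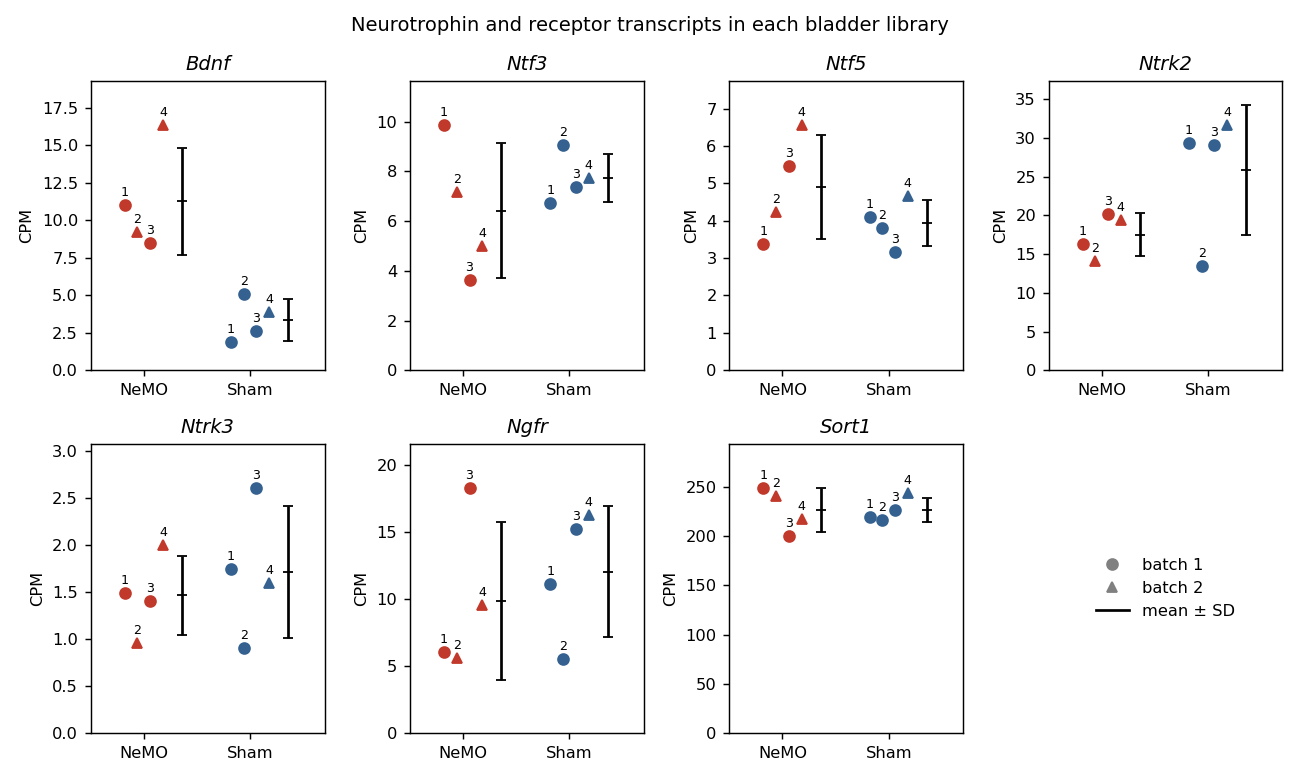
Expression of the 7 members in CPM (vertical axes, linear from 0) in each NeMO and Sham library, with replicate numbers beside the points, circles for batch 1 and triangles for batch 2, and black bars for mean ± SD (n = 4). For Bdnf the NeMO points run from 8.45 to 16.3 CPM and all lie above the Sham points, at 1.89 to 5.09 CPM, while the other 6 members overlap.

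Ntf3, which encodes neurotrophin-3, the ligand of the receptor made from Ntrk3, did not differ beyond its spread. It measured 9.86, 7.19, 3.61 and 5.01 CPM in NeMO replicates 1 to 4, against 6.74, 9.07, 7.36 and 7.75 CPM in Sham replicates 1 to 4. NeMO replicate 1 was the highest library of all and NeMO replicate 3 the lowest, so the Sham values fell inside the NeMO range. The log2 fold change was −0.25 (SE 0.30, 95% interval −0.92 to 0.42, edgeR adjusted p = 0.693). Leaving out NeMO replicate 1 gave −0.73, and leaving out NeMO replicate 3 gave 0.032. In batch 1 alone it was −0.20, and in batch 2 alone −0.34. Ntf3 lies on chromosome 6 (126101412 to 126166910, minus strand).

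Ntf5 encodes neurotrophin-4, which also binds the receptor made from Ntrk2. It measured 3.38, 4.24, 5.48 and 6.56 CPM in NeMO replicates 1 to 4, against 4.09, 3.81, 3.17 and 4.67 CPM in Sham replicates 1 to 4. NeMO replicates 3 and 4 lay above all Sham libraries, and NeMO replicates 1 and 2 lay among them. NeMO minus Sham was 0.24 on the log2 scale (SE 0.23, 95% interval −0.27 to 0.76, edgeR adjusted p = 0.607), and it was 0.035 to 0.41 when 1 library was left out. Ntf5 lies on chromosome 7 (45413695 to 45417179, plus strand).

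Per kilobase of exon, Bdnf made up a larger share of the 3 ligand transcripts in every NeMO library than in any Sham library. The share was 20.2%, 20.4%, 24.6% and 32.7% in NeMO replicates 1 to 4, against 5.24%, 10.8%, 7.09% and 9.03% in Sham replicates 1 to 4. Ntf3 was the largest of the 3 in each of the 8 libraries, with a share of 36.4% to 65.4% in NeMO and 65.5% to 72.7% in Sham. In NeMO replicates 3 and 4 the ligands were close to each other, with 38.1% and 36.4% for Ntf3 beside 37.3% and 30.8% for Ntf5. With the longest transcript as the length, Ntf5 was the largest in NeMO replicate 3 (38.7%, Ntf3 33.8%) and Bdnf in NeMO replicate 4 (36.3%, Ntf3 32.0%), and the Bdnf share still did not overlap between groups. The ratio of Bdnf to Ntf3 per kilobase was 0.551 ± 0.275 in NeMO and 0.117 ± 0.0357 in Sham (SD, n = 4 each), and the ranges, 0.309 to 0.899 in NeMO and 0.0771 to 0.155 in Sham, did not overlap. These shares follow from the values of Bdnf above, and, like the other ratios given here, were chosen after those were seen and were not tested.

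**Figure D2:**
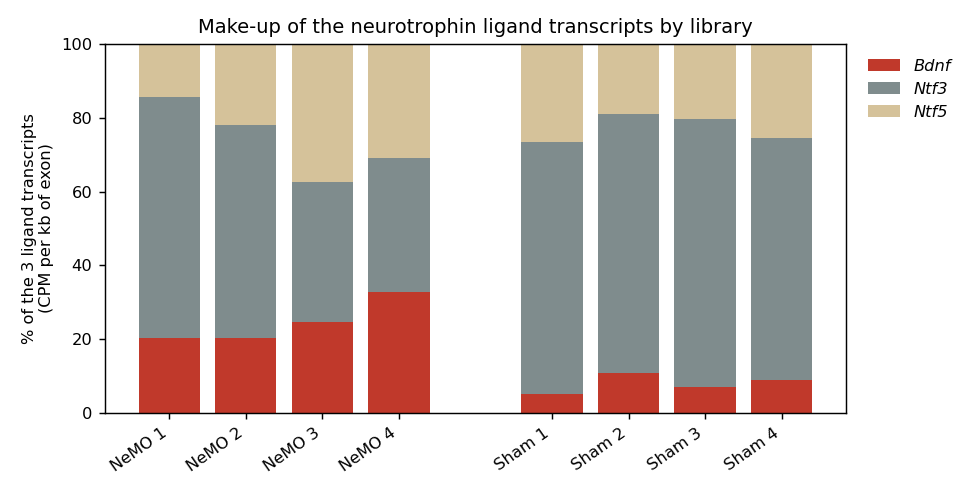
Share of Bdnf, Ntf3 and Ntf5 (vertical axis, percent of their summed CPM per kilobase of exon) in each of the 4 NeMO and 4 Sham libraries. The Bdnf part spans 20.2% to 32.7% in NeMO and 5.24% to 10.8% in Sham.

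Ntrk2 encodes TrkB, the receptor of brain-derived neurotrophic factor and neurotrophin-4, which also exists in truncated forms without the kinase that gene-level counts do not separate. It lies on chromosome 13 (58806569 to 59133970, plus strand). Ntrk2 measured 16.3, 14.2, 20.2 and 19.4 CPM in NeMO replicates 1 to 4, against 29.3, 13.5, 29.2 and 31.7 CPM in Sham replicates 1 to 4. Sham replicates 1, 3 and 4 lay above every NeMO library, and Sham replicate 2 lay below all of them. The mean was 17.5 ± 2.80 CPM in NeMO and 25.9 ± 8.37 CPM in Sham (SD, n = 4 each). The log2 fold change was −0.58 (SE 0.27, 95% interval −1.20 to 0.03, edgeR adjusted p = 0.290). Without Sham replicate 2 it was −0.77 (edgeR adjusted p = 0.110). Within batches it was −0.39 in batch 1 and −0.91 in batch 2.

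Ligand and receptor were also compared within each library. Per kilobase of exon, the ratio of Bdnf to Ntrk2 was 2.10, 2.02, 1.30 and 2.61 in NeMO replicates 1 to 4, against 0.200, 1.17, 0.277 and 0.380 in Sham replicates 1 to 4. The lowest NeMO library and Sham replicate 2 were close, at 1.30 and 1.17, and the groups did not overlap. With the longest transcript as the length, these were 0.857 and 0.775.

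Ntrk3, the gene of TrkC, was the member with the fewest reads, 29 to 72 per library in NeMO and 26 to 87 in Sham. It measured 1.49, 0.960, 1.40 and 1.99 CPM in NeMO replicates 1 to 4, against 1.74, 0.900, 2.60 and 1.60 CPM in Sham replicates 1 to 4. The groups overlapped almost fully, and replicate 2 was the lowest library in both. NeMO minus Sham was −0.22 on the log2 scale (SE 0.38, 95% interval −1.08 to 0.64, edgeR adjusted p = 0.804), and 0.033 without Sham replicate 3. A difference of a size within this interval is not excluded by these libraries. Ntrk3 lies on chromosome 7 (78175959 to 78738012, minus strand).

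Ngfr encodes the p75 receptor, a member of the tumour necrosis factor receptor family that binds all neurotrophins, and is known from Schwann cells and neurons. It lies on chromosome 11 (95568818 to 95587735, minus strand). Ngfr measured 6.05, 5.60, 18.3 and 9.55 CPM in NeMO replicates 1 to 4, against 11.2, 5.54, 15.3 and 16.3 CPM in Sham replicates 1 to 4. NeMO replicate 3 was the highest library of all, the other NeMO libraries lay below Sham replicates 1, 3 and 4, and Sham replicate 2 was the lowest of all. The log2 fold change was −0.28 (SE 0.49, 95% interval −1.42 to 0.86, edgeR adjusted p = 0.803). It was 0.20 in batch 1 and −1.09 in batch 2, so its sign differed between batches, and the difference between batches was not tested. Leaving out Sham replicate 4, which leaves batch 1 alone to give the difference, gave 0.19, and leaving out NeMO replicate 3 gave −0.95.

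Sort1 encodes sortilin, a sorting receptor that carries neurotrophin precursors inside the cell and acts as the partner of p75 at the surface. It lies on chromosome 3 (108284082 to 108361511, plus strand), and an antisense gene model overlaps 4.47% of its exonic bases. Sort1 was the most abundant member, with 249, 241, 200.1 and 218 CPM in NeMO replicates 1 to 4, against 219.8, 216.3, 227 and 244 CPM in Sham replicates 1 to 4. The groups overlapped, with NeMO replicates 1 and 3 at the upper and lower end. The log2 fold change was −0.02 (SE 0.09, edgeR adjusted p = 0.942), and the 95% interval ran from −0.21 to 0.18, the narrowest of the 7.

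**Figure D3:**
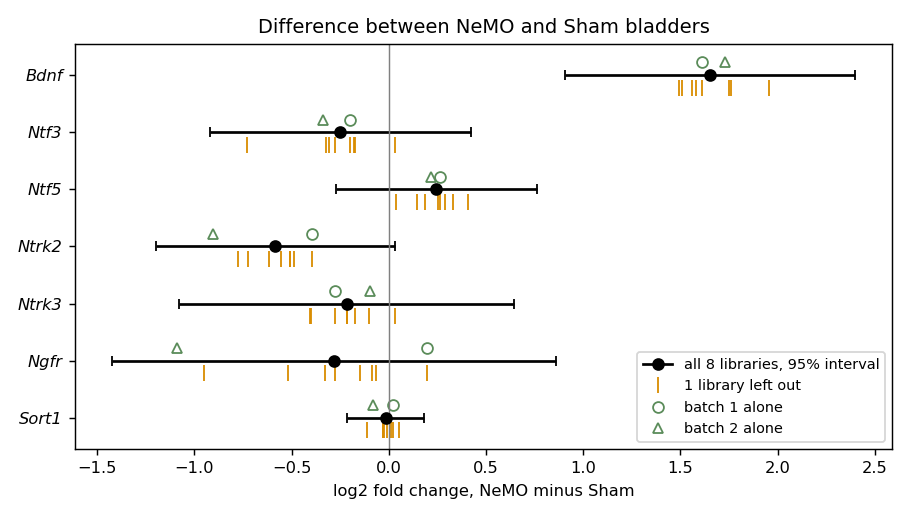
Log2 fold change of NeMO minus Sham (horizontal axis) for each member, with black points and bars for the estimate over all 8 libraries and its 95% interval, orange ticks for fits with 1 library left out and green open symbols for each batch alone. The Bdnf interval, 0.90 to 2.40, is the only 1 of 7 that does not reach 0, and Ngfr lies at 0.20 in batch 1 and −1.09 in batch 2.

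Levels of different genes were compared per kilobase of exon, and again per kilobase of the longest transcript. In NeMO the order was Sort1 at 30.0 ± 2.96 CPM per kilobase, Ntf3 at 3.74 ± 1.59, Ngfr at 2.87 ± 1.71, Ntf5 at 1.85 ± 0.525, Bdnf at 1.81 ± 0.572, Ntrk2 at 0.908 ± 0.145 and Ntrk3 at 0.0484 ± 0.0140 (SD, n = 4). In Sham it was Sort1 at 30.0 ± 1.62, Ntf3 at 4.51 ± 0.574, Ngfr at 3.50 ± 1.41, Ntf5 at 1.48 ± 0.235, Ntrk2 at 1.34 ± 0.434, Bdnf at 0.541 ± 0.228 and Ntrk3 at 0.0567 ± 0.0232. Bdnf stood at rank 5 in NeMO and rank 6 in Sham, in exchange with Ntrk2. Sort1 lay far above its neighbour and Ntrk3 far below its neighbour in both groups. Ntf3 and Ngfr overlapped in both groups, as did Ngfr and Ntf5, while Ntf5 and Bdnf overlapped in NeMO and Bdnf and Ntrk2 did not overlap there. Ntf5 and Ntrk2 overlapped in Sham, and there Ntrk2 and Bdnf met only through Sham replicate 2, at 0.698 for Ntrk2, below the highest Bdnf value of 0.819. With the longest transcript as the length, Bdnf stood at rank 4 in NeMO and rank 6 in Sham. Ntrk2 then stood at rank 6 in NeMO and rank 4 in Sham. The overlaps of these genes turned with that length. In NeMO, Bdnf (1.98 to 3.83) and Ntrk2 (1.62 to 2.31) overlapped. In Sham, Bdnf (0.442 to 1.19) and Ntrk2 (1.54 to 3.62) did not.

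Markers of the cells that could hold these transcripts were read from lists. In whole tissue, fewer cells of a type and less RNA per cell cannot be told apart. As background for these lists, 48.3% of all 16370 tested genes were higher in NeMO. With an unadjusted p under 0.05 in edgeR, 9.38% of them were higher and 9.14% lower. DESeq2 put 953 of 16370 genes past the adjusted threshold, and edgeR without NeMO replicate 1 put 652 of 16621 past it. All 11 tested neuron markers were lower in NeMO, with a median log2 fold change of −0.78 against −0.0098 over all genes, and 0 passed edgeR's adjusted test (3 lower at an unadjusted p under 0.05, 1 past the adjusted threshold by DESeq2 and 1 in edgeR without NeMO replicate 1). Their summed level was 202 to 375 CPM in NeMO and 353 to 443 CPM in Sham. Th, the enzyme of catecholamine synthesis, had 0 reads in every NeMO library and in Sham replicates 1 and 2. It had 4 and 1 reads in Sham replicates 3 and 4, was near the floor in both groups and was not tested. Of 12 Schwann cell markers, 10 were lower in NeMO, with a median of −0.30, and 0 passed in edgeR or DESeq2 (3 lower at an unadjusted p under 0.05 in edgeR), with a summed level of 381 to 449 CPM in NeMO and 423 to 493 CPM in Sham.

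Ntrk2 and the neuron markers had the same lowest library and the same 3 highest libraries, while their order within NeMO differed. The mean log2 CPM of those markers was 1.72, 0.92, 1.08 and 1.58 in NeMO replicates 1 to 4, against 2.26, 0.70, 2.16 and 2.53 in Sham replicates 1 to 4. Sham replicate 2, the Sham library with little Ntrk2, Ntrk3 and Ngfr, was the lowest of the 8 there too, although its summed neuron marker level, 385 CPM, lay within the Sham range. Tubb3, a neuronal tubulin gene, was picked for its correlation with Ntrk2 (r = 0.947), so its likeness to Ntrk2 was selected. It had 2.26, 1.39, 3.12 and 3.74 CPM in NeMO replicates 1 to 4. In Sham replicates 1 to 4 it had 5.30, 0.866, 4.88 and 9.46 CPM. Other neuron markers did not all follow. In Sham replicate 2, Prph (2.94 CPM) and Elavl4 (0.0693 CPM) were the lowest of Sham. Uchl1 there (355 CPM) lay between the other Sham values. Stmn2 there (17.5 CPM) was the lowest of Sham but above NeMO replicates 2 to 4. NeMO replicate 3, the library with the most Ngfr, was the lowest of the 8 in Schwann cell markers (mean log2 CPM 3.33). It was the highest in fibroblast markers (summed 16849 CPM, against 7248 to 10943 CPM in the other NeMO libraries and 8020 to 10631 CPM in Sham). It was also the highest in endothelium markers (summed 517 CPM, against 291 to 436 CPM in the other NeMO libraries and 332 to 409 CPM in Sham). In smooth muscle and adipocyte markers it had the lowest sums of the 8 (28632 and 336 CPM). The part of these cells in the values of Ntrk2 and Ngfr was not tested.

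**Figure D4:**
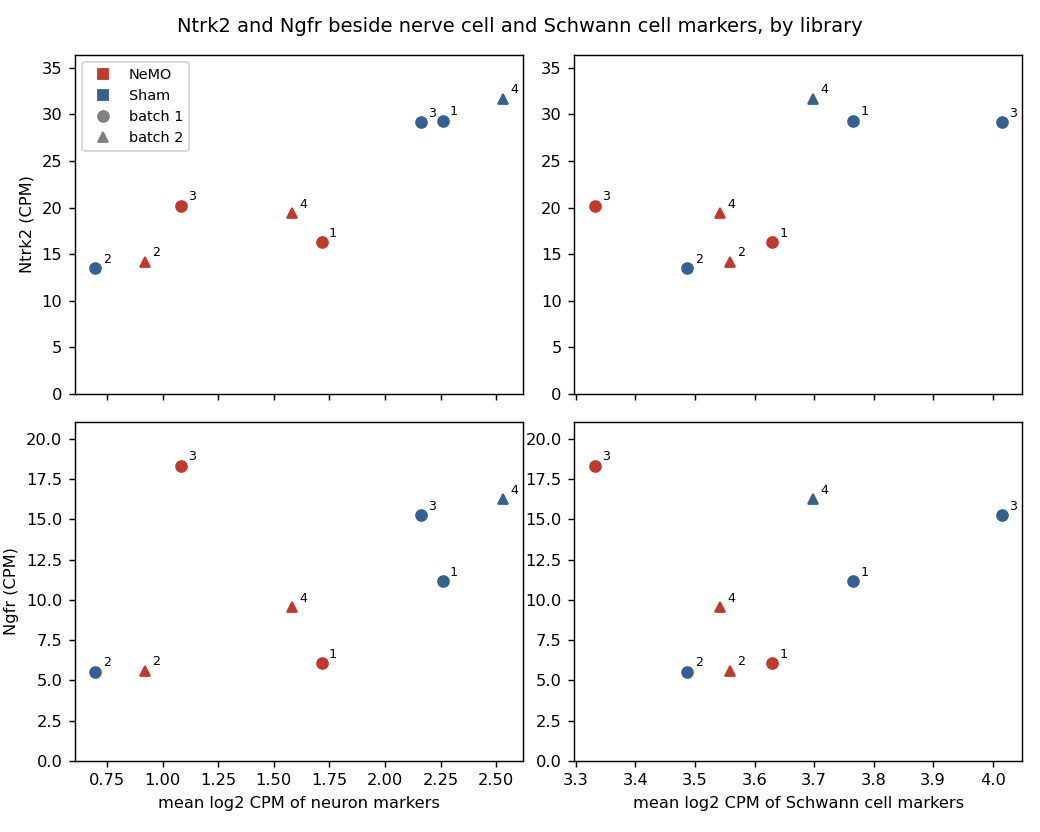
Ntrk2 (upper panels) and Ngfr (lower panels) in CPM against the mean log2 CPM of neuron markers (left) and Schwann cell markers (right), 1 point per library, red for NeMO, blue for Sham, with replicate numbers. Sham replicate 2 lies at the low end of Ntrk2 (13.5 CPM) and of the neuron markers (0.70), and NeMO replicate 3 has the highest Ngfr (18.3 CPM) at the lowest Schwann cell markers (3.33).

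For comparison with Bdnf, smooth muscle markers summed to 28632 to 52706 CPM in NeMO, against 33534 to 45526 CPM in Sham. Urothelial markers summed to 6522 to 9899 CPM in NeMO, against 7518 to 9980 CPM in Sham, and 7 of 10 were lower in NeMO (4 at an unadjusted p under 0.05 in edgeR, and past the adjusted threshold 0 in edgeR and 4 by DESeq2). Both sums overlapped between groups. Mast cell markers did not overlap, with 53.2, 17.9, 32.8 and 63.1 summed CPM in NeMO replicates 1 to 4, against 12.9, 12.5, 12.7 and 8.47 in Sham replicates 1 to 4. All 5 tested mast cell markers were higher in NeMO (median log2 fold change 1.77, 4 at an unadjusted p under 0.05 in edgeR). Past the adjusted threshold were 0 in edgeR and 4 by DESeq2. In edgeR without NeMO replicate 2, 3 of 6 tested mast cell markers passed, among 50 of 16586 genes. Adipocyte markers were lower, all 6 of 6, with a median of −1.19 (4 at an unadjusted p under 0.05 in edgeR). Past the adjusted threshold were 0 in edgeR, 2 by DESeq2 and 2 in edgeR without NeMO replicate 1. Of the lists not yet given, macrophage markers were lower in 7 of 7 (median −0.26). Endothelium and pericyte markers were higher in 6 of 7 each (0.12 and 0.15) and fibroblast markers in 6 of 8 (0.21). Mesothelium and skeletal muscle markers were lower in 3 of 5 each (−0.28 and −0.12). The sums of these lists overlapped between groups. In edgeR with all libraries 0 of them passed, and 1 pericyte and 1 mesothelium marker passed by DESeq2. The part of any of these cells in the level of Bdnf was not tested.

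Pro-neurotrophins are cut by furin-like proteases inside the cell or by plasmin and metalloproteinases outside it, and carboxypeptidase E sorts the precursor of brain-derived neurotrophic factor into secretory granules. Among 13 tested genes of this processing, 0 rose and 1 fell in edgeR, Cpe, the gene of carboxypeptidase E. Of the 13, 2 passed by DESeq2, which passed 953 of 16370 genes. In edgeR without NeMO replicate 1, 3 of 15 tested genes of this processing passed, among 652 of 16621 genes. Cpe measured 192, 185, 177 and 176 CPM in NeMO replicates 1 to 4, against 339, 287, 338 and 373 CPM in Sham replicates 1 to 4. The groups did not overlap, and the fold change was −0.89 on the log2 scale (SE 0.09, edgeR adjusted p = 0.0175). That call was lost without NeMO replicate 4 (−0.86, edgeR adjusted p = 0.0765), Sham replicate 1 (−0.88, edgeR adjusted p = 0.0539) or Sham replicate 4 (−0.80, edgeR adjusted p = 0.229), while the fold change stayed of like size. The call was also lost in either batch alone, with −0.80 in batch 1 and −1.04 in batch 2, where Sham has 1 library. In batch 1 alone 0 of all genes passed. The gelatinase gene Mmp9 averaged 9.60 ± 5.54 CPM in NeMO and 34.7 ± 8.60 CPM in Sham, a log2 difference of −1.86 (SE 0.43, adjusted p = 0.118 in edgeR). The convertase gene Pcsk5 averaged 37.2 ± 33.7 CPM in NeMO and 11.7 ± 2.19 CPM in Sham, a log2 difference of 1.78 (SE 0.63, adjusted p = 0.217 in edgeR). Both missed the threshold and were chosen after their values were seen. The granule convertase genes Pcsk1 and Pcsk2 had at most 22 reads in a library and were not tested.

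Receptor partners and the kinase pathway behind the Trk receptors held 0 genes past the adjusted threshold in edgeR. DESeq2 passed 1 partner or sorting receptor and 0 Trk signalling genes, and without NeMO replicate 1 edgeR passed 1 Trk signalling gene. Of 13 tested partners and sorting receptors, 6 were higher and 7 lower (median log2 fold change −0.02), and 3, all higher, stood at an unadjusted p under 0.05 in edgeR. They were Kidins220, a scaffold that binds Trk receptors and p75 (0.27, SE 0.08, edgeR adjusted p = 0.157), the Nogo receptor gene Rtn4r, a partner of p75 (0.65, SE 0.22), and the sorting receptor gene Sorl1, a relative of sortilin (0.19, SE 0.08). Of 34 tested Trk adaptors and signalling genes, 24 were higher and 10 lower (median 0.06), and 9 stood at an unadjusted p under 0.05, 6 of them higher. The kinase genes Akt2 (−0.33, SE 0.10, edgeR adjusted p = 0.147), Pdpk1 (0.22, SE 0.07) and Map2k2 (−0.21, SE 0.07) had the smallest p. Over all genes 18.5% stood at such a p, against 26.5% of these 34.

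Signalling genes behind p75 numbered 21, of which 14 were higher and 7 lower (median 0.06), with 5 higher at an unadjusted p under 0.05 in edgeR. Past the adjusted threshold were 0 in edgeR and 1 by DESeq2. Their smallest p belonged to the kinase genes Rock2 (274 ± 42.9 CPM in NeMO, 197 ± 22.4 CPM in Sham, a log2 difference of 0.49 with SE 0.13 and an edgeR adjusted p of 0.115) and Rock1 (0.29, SE 0.09), and to the stress kinase gene Mapk8 (0.24, SE 0.08). Genes known to respond to neuronal activity or Trk signalling were split, 9 higher and 11 lower of 20 (median −0.02), with 3 at an unadjusted p under 0.05 in edgeR. Past the adjusted threshold were 0 in edgeR, 2 by DESeq2 and 1 in edgeR in batch 2 alone. Spred1, an inhibitor of the Ras pathway, stood at 0.32 (SE 0.09, edgeR adjusted p = 0.133). The neuronal pentraxin gene Nptx2 stood at 0.92 (SE 0.28) and the immediate early gene Fos at −1.13 (SE 0.34), in the opposite direction to Bdnf.

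The genes whose levels ran most like each member over the 8 libraries were found by Pearson's r of log2 CPM among 13236 genes. For Bdnf they were Dync1h1 (r = 0.961), Dcaf7 (r = 0.960) and Rapgef3 (r = 0.959). None of these differed as much as Bdnf, with log2 fold changes of 0.23, 0.13 and 0.47. For Ntrk2 they were Gypc (r = 0.958), Mxd1 (r = 0.952) and Tubb3 (r = 0.947), and for Ngfr they were Rai2 (r = 0.958), Tenm4 (r = 0.946) and Gimap1 (r = 0.944). Ntf3 was closest to Kcnn2 (r = 0.984), Dpf3 (r = 0.984) and Stk32c (r = 0.979), and Ntf5 to Mast3 (r = 0.987), Adc (r = 0.983) and Fam212a (r = 0.954). Ntrk3 was closest to Cdkn2d (r = 0.939), Mtx1 (r = 0.937) and Nob1 (r = 0.919), and Sort1 to Ablim1 (r = 0.944), Tbx3 (r = 0.926) and Plekhg3 (r = 0.925). These are the best of many genes over few libraries that share groups, batches and depth, and they describe likeness only.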

How the data were processed

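Bladder RNA was sequenced in 4 NeMO and 4 Sham libraries as directional polyA libraries read from 1 end, per the labels' protocols. What the authors deposited are raw counts of reads for each gene symbol, as whole numbers. Their processing, per the submitters' processing notes, used STAR, featureCounts, Trimmomatic and DESeq2 with build mm10. The sources used here do not give the annotation or the strand setting.

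Genes were kept by edgeR's filterByExpr (minimum count 10, minimum total 15) and scaled by TMM, and CPM are those scaled counts. Groups were compared by the quasi-likelihood F-test of edgeR (edgeR 4.0.16, R 4.3.3), robust, two-sided, with batch and group as terms and Benjamini-Hochberg adjustment over 16370 genes at 0.05. Standard errors come from its F statistic. log2 CPM used a prior count of 2. DESeq2 1.42.0, on the same filtered genes, was an alternative, beside other scalings, no filter, no batch term, single batches, a replicate block, a length and GC correction and leaving out each library. Every pair of libraries within a group differed by more than sampling noise.

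The members and lists were chosen with earlier results of these data known. Named were all members, list genes past the threshold or else the 3 with the smallest p (beside them Mmp9 and Pcsk5, chosen after their values were seen), and the 3 genes most correlated with each member (mean of at least 1 CPM, no gene models). The share of ligands, the ratios and the single neuron markers Prph, Elavl4, Uchl1 and Stmn2 were chosen after values were seen. Tubb3 was named through its correlation with Ntrk2. Positions and lengths come from GENCODE M21 (GRCm38), which matched 35656 of 38926 symbols directly and 1756 through a RefSeq synonym. No protein sequences were used here.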

Additional observations from a re-analysis of the deposited data

Results flagged for a closer look

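Ntrk2 in Sham replicate 2, at 13.5 CPM, lay far from the other Sham libraries (29.2 to 31.7 CPM). The gap to its nearest neighbour was 0.861 of the range of the group, above Dixon's critical value of 0.829 for 4 samples. The 7 members gave 14 groups to look at, and chance flags about 1 in 20.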

How the results depend on the processing

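Over 18 alternatives each, Bdnf stayed higher in NeMO in all 18 (log2 fold change 1.49 to 2.10), past the threshold only with DESeq2 (1.66, adjusted p = 4.6e-05), which put the members past the threshold at 1. Ntf5 stayed higher and Ntrk2 lower in all 18. Directions turned for Sort1 without a batch term (0.0019), in batch 1 alone (0.023) and when 1 library was left out (−0.11 to 0.051), and for Ngfr in batch 1 alone (0.20) and with 1 library left out (−0.95 to 0.19). With 1 library left out, Ntf3 ran from −0.73 to 0.032 and Ntrk3 from −0.40 to 0.033. The causes were not tested. The number of genes past the threshold, 12 in edgeR with all libraries, was 172 without the low-count filter, 7 without a batch term, 7 in batch 2 alone, 953 with DESeq2 and 0 to 652 when 1 library was left out (652 without NeMO replicate 1, 50 without NeMO replicate 2, 7 without NeMO replicate 3, 3 without Sham replicate 1, 4 without Sham replicate 2, and 0 without NeMO replicate 4 or Sham replicate 4, with 2549 and 1656 at an unadjusted p under 0.05 in edgeR). It was 0 in batch 1 alone (1756 at an unadjusted p under 0.05 in edgeR). The lone Sham library of batch 2 was assumed to vary like the NeMO libraries. Same-numbered libraries correlated at −0.0096, 0.082, 0.044 and 0.32 in their deviations from the group means, and 2 of 4 correlated best with their own number. Batch was not removed from these deviations, so they do not settle whether the numbers mark pairs. The main fit did not take the numbers as pairs. With the replicate number as a block the count was 2 with a batch term and 0 without one (2648 at an unadjusted p under 0.05 in edgeR). With that block Bdnf stood at 2.10 (edgeR adjusted p = 0.0758) and 1.78, and Cpe missed the threshold (−0.94, edgeR adjusted p = 0.0758). Ntrk2 stood at −0.69 with the block and a batch term (SE 0.11, edgeR unadjusted p = 0.00083, adjusted p = 0.120). Without the batch term it was −0.51 (SE 0.15, edgeR unadjusted p = 0.013, adjusted p = 0.213). Ntrk3 had the fewest reads of the members, 26 to 87 per library. Counts of marker genes past the threshold under each alternative were added after seeing the data.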
